A study of Mus musculus with 6 samples.

Results

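The genes described here act on the triglyceride store of the cell, the lipid droplet. They are G0s2 with 7 genes of lipid droplet breakdown and coating, namely Pnpla2, Abhd5, Plin2, Plin3, Hilpda, Mgll and Lpl. They were selected by gene symbol in the deposited table, 8 of 11815 genes listed, and each gene's value is the sum over its listed transcripts of TPM, a share of a library's transcripts that is corrected for transcript length. G0s2 was picked because of its difference between ovariectomized (OVX) and sham mice in these same libraries, and the other members were put beside it for their function once results were known. The OVX against sham values of the 8 genes are therefore a description.

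RNA was sequenced in bulk from osteal macrophages (Omacs), the macrophages of bone surfaces, of female BALB/c mice. Mice had both ovaries removed at 10 weeks of age, or a sham operation, and cells were taken 4 weeks later without further treatment. Each group had 3 libraries. Femurs and vertebrae of 20 mice per condition were harvested and periosteum was removed. Marrow was washed out of the femurs, and the study's methods name no such step for vertebrae. Digested bone was sorted with antibodies against CD11b, F4/80 and CD68. The sources used here do not say how mice were divided among libraries, so the spread between libraries may be technical.

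Triglyceride is broken down in steps. Adipose triglyceride lipase (ATGL), encoded by Pnpla2, removes the first fatty acid, hormone-sensitive lipase (Lipe) acts on the diglyceride, and monoglyceride lipase (Mgll) releases the last fatty acid. ABHD5 activates ATGL, whereas G0S2 and HILPDA are small proteins that inhibit it, and perilipins (Plin2, Plin3) coat the droplet. Lipoprotein lipase (Lpl) is secreted and hydrolyses triglyceride of circulating lipoproteins, so it acts outside the droplet. Macrophages store lipid in droplets when activated, and G0s2 is also known as a gene of neutrophils and of fat cells.

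The stretches below lie before the start of G0s2 and of Pnpla2, the inhibitor and the enzyme whose levels differed most in opposite directions, and around 1 match in Hilpda, a gene named for its induction by hypoxia. The sequences are those of RefSeq on GRCm38.p6 (mm10), written 5′ to 3′ on the strand of the gene, and capitals mark the hypoxia-element cores ACGTG and GCGTG, searched on both strands. Of the G0s2 stretch, which lies outside G0s2 itself, 91 bases fall in annotated exons. All 30 bases of the Hilpda stretch lie in an annotated exon.
G0s2, chr1:193273218-193273438, minus strand: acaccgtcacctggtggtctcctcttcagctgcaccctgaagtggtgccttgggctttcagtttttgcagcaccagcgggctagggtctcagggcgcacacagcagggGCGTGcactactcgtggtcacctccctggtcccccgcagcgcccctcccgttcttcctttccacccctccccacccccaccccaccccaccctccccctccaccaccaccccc
Pnpla2, chr7:141454938-141455187, plus strand: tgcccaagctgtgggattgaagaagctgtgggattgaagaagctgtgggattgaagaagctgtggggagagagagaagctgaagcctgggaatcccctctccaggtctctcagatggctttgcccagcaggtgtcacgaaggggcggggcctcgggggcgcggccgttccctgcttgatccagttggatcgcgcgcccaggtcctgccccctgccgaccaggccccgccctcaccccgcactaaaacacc
Hilpda, chr6:29272570-29272599, plus strand: ggatggccagcggACGTGccccagggcgag

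RefSeq gave starts for 7 of the 8 genes, 9 starts in all, and the 250 bases before each were searched. G0s2 held 1 GCGTG and 0 ACGTG, Pnpla2 and Plin3 held neither, and Plin2 and Abhd5 held 1 GCGTG each. The Hilpda start that matches its listed transcript held 1 ACGTG and 2 GCGTG, and the other Hilpda start held neither. At Mgll the first start held 2 ACGTG and 2 GCGTG, the 2 ACGTG being the same palindrome read on both strands, and the second start held 1 and 6. ACGTG occurs in 16.6% and GCGTG in 28.2% of the 32851 promoter stretches of this length. G and C made up 48.4% of the bases before the other Hilpda start and 60.0% to 74.8% before the rest. The median over all stretches was 52.4%, and the part of base content in these matches was not tested. The hormone receptor site AGGTCA was found once each before Plin2 and Abhd5, against 14.0% of all stretches. The full estrogen element GGTCANNNTGACC, the direct repeat AGGTCANAGGTCA of PPAR receptors, the C/EBP motif TTGCNNAA and the PU.1 core GAGGAAGT were found before none of the 7 genes, and occur in 0.0639%, 0.0335%, 9.56% and 2.44% of all stretches. A match is a string of letters and says nothing of binding in these cells.

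The 3 most abundant members lay far above the rest. Values are scaled TPM, which are TPM divided by a factor per library and, being per length, allow levels of different genes to be compared. Over the 6 libraries G0s2 averaged 411 scaled TPM, Hilpda 336 and Plin2 231, and these levels exceeded those of 97.2%, 96.5% and 95.4% of the 8184 genes tested. Abhd5 averaged 13.8, Plin3 6.77, Mgll 3.44, Pnpla2 3.24 and Lpl 0.831. A gene was tested if its mean was at least 1 scaled TPM, so Lpl was not tested and 7 members were. The mean of Plin2 was 16.7 times that of Abhd5, the widest step in the order. G0s2 lay above Hilpda in 3 of 6 libraries, the OVX ones, and below it in the sham ones. Mgll and Pnpla2 cannot be ordered, each being the higher in 3 libraries. Every other neighbour in the order kept its place in all 6 libraries except that Lpl lay above Pnpla2 in 1.

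**Figure D1:**
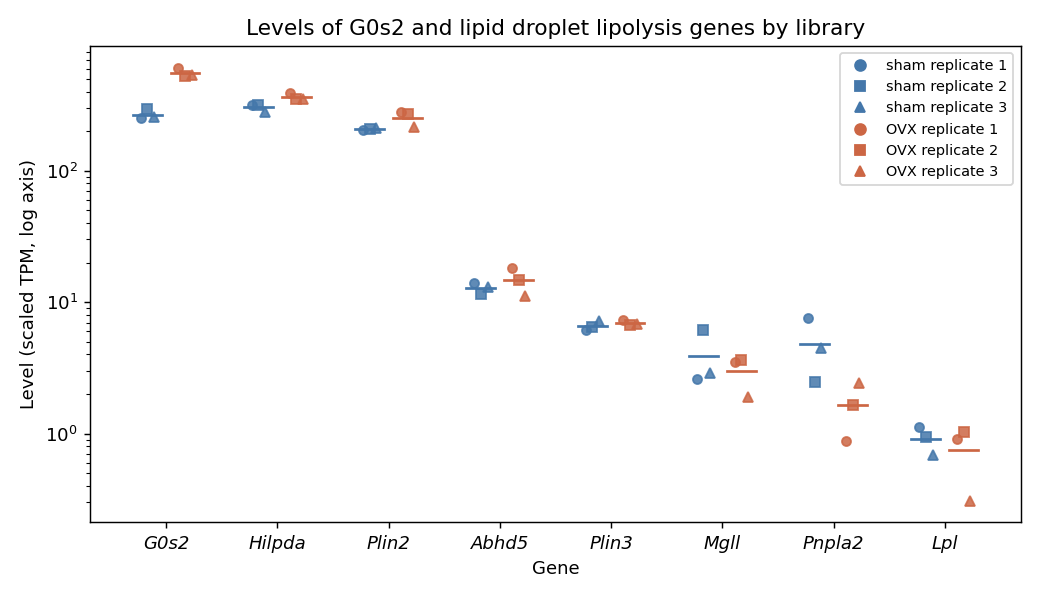
Levels of the 8 genes in scaled TPM on a log axis, with genes in order of mean level. Points are the 3 sham (blue) and 3 OVX (orange) libraries and lines are group means. The G0s2 points of OVX, at 524 to 610, lie above all sham points, at 250 to 293, whereas the points of Abhd5, Plin3, Mgll and Lpl overlap between the groups.

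OVX and sham libraries were compared to see how gene expression in the cells sorted as Omacs differed after removal of the ovaries. G0s2 was about 2-fold higher in the OVX libraries, Plin2 and Hilpda were about 1.2-fold higher, and Pnpla2 was at about 0.34 of its sham level but low in both groups. Abhd5, Plin3, Mgll and Lpl overlapped between the groups. In limma, a linear model fitted to all genes, 0 of the 7 tested members passed a Benjamini-Hochberg adjusted p of 0.05, and 0.0122% of all genes did. The adjusted p of the 6 tested members other than G0s2 ran from 0.674 to 0.905. At an unadjusted p of 0.05 or less, 2 members stood, G0s2 and Pnpla2, against 6.88% of all genes. Because G0s2 was chosen on this contrast, nothing is read from these counts. Of the 7 tested members 5 had a log2 fold change above 0 and 2 below, with a median of 0.16, beside -0.01 over all genes tested.

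G0s2 (chromosome 1, 193272161 to 193273217, minus strand) has 1 annotated transcript of 2 exons, and it is listed. Sham replicates 1 to 3 read 250, 293 and 257 scaled TPM, and OVX replicates 1 to 3 read 610, 524 and 534. The groups stood apart, with the lowest OVX library well above the highest sham library. Means were 267 ± 23.0 in sham and 556 ± 46.8 in OVX (SD, n = 3), and the log2 fold change was 1.06 ± 0.14 (SE) on the log2(scaled TPM + 1) scale. The coefficient of variation was 8.62% in sham and 8.41% in OVX, so the difference of the means exceeded the SD of either group. As deposited, sham TPM were 261, 291 and 294 and OVX TPM were 609, 527 and 450, still without overlap. G0s2 lies within Lamb3, a laminin gene of the opposite strand, and shares 0 exonic bases with it. Lamb3 itself was below 1 scaled TPM in every library.

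OVX replicate 3 was the library that stood apart. Its listed transcripts held 66.3% of the full TPM scale against 80.5% to 83.0% in the other 5 libraries, and its scaling factor was 0.841 against 0.994 to 1.14. Without it the log2 fold change of G0s2 was 1.08 ± 0.11. Where limma gave each library a weight, that library got 0.172 and the others 0.907 to 2.68, and G0s2 was at 1.04 ± 0.10.

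The summed neutrophil markers were higher in all 3 OVX libraries, as G0s2 was, and their part in the G0s2 difference was not tested. Of 13 neutrophil markers 8 were listed and 7 tested, all 7 above 0 with a median log2 fold change of 0.53, and 0 passed by limma over all genes. The listed markers gave sums of 80563, 89312 and 69673 in the sham libraries and 141590, 133574 and 131991 in the OVX libraries, 1.70 times the sham mean. Nearly all of this sum was S100a8 and S100a9, the calprotectin subunit genes, at log2 fold changes of 0.85 ± 0.19 and 0.69 ± 0.20. The groups did not overlap for these 2 genes, for the granule gene Ngp (0.76 ± 0.27) or for Mmp8 (0.53 ± 0.16), a collagenase gene. They overlapped for 3 of the 7, the granule genes Lcn2 (0.21 ± 0.33), Ltf (0.26 ± 0.30) and Elane (0.21 ± 0.23). In OVX replicate 3, Lcn2 (762 scaled TPM against 1139 to 1196 in sham) and Ltf (58.6 against 78.2 to 87.8) lay below every sham library. In the same library S100a8 (74242) and Mmp8 (44.8) were at their highest. There S100a9 (54282) and Ngp (2596) lay above every sham library, and Elane (4.91) lay within the sham range. Ly6g, Csf3r, Cxcr2, Camp and Retnlg were not analysed here, and Mpo, a gene of neutrophil precursors, was below the level for testing.

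A ratio within a library does not depend on the scaling. G0s2 over the summed neutrophil list was 0.00311, 0.00328 and 0.00369 for sham replicates 1 to 3 and 0.00431, 0.00392 and 0.00405 for OVX replicates 1 to 3. The OVX ratios lay above the sham ratios by a narrow gap, and the means differed 1.22-fold, beside 2.08-fold for the G0s2 level. G0s2 was chosen on this contrast, so the ratios that hold it are a description. The ratio to Lcn2 was 0.219 to 0.245 in sham and 0.324, 0.301 and 0.701 for OVX replicates 1 to 3. The ratio to S100a9 was 0.00612 to 0.00713 in sham and 0.00807, 0.00746 and 0.00984 for OVX replicates 1 to 3. Their OVX means were 1.94 and 1.30 times those of sham, both without overlap, and OVX replicate 3 was the highest library in both. The ratio to Ngp overlapped, with 0.102 to 0.121 in sham and 0.116, 0.104 and 0.206 for OVX replicates 1 to 3. Its OVX mean of 1.28 times that of sham thus rested on OVX replicate 3. The ratio to S100a8 overlapped as well, with 0.00695 to 0.00861 in sham and 0.0072 to 0.0104 in OVX. The ratio of G0s2 to Itgam, which encodes the sort marker CD11b and is also expressed by neutrophils, overlapped too, with 21.5 to 23.9 in sham and 18.9 to 32.4 in OVX. Over the same neutrophil sum, Hilpda and Plin2 were lower in every OVX library, with means 0.703 and 0.709 times those of sham. In bulk RNA, more cells of a type and more RNA per cell cannot be told apart.

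**Figure D2:**
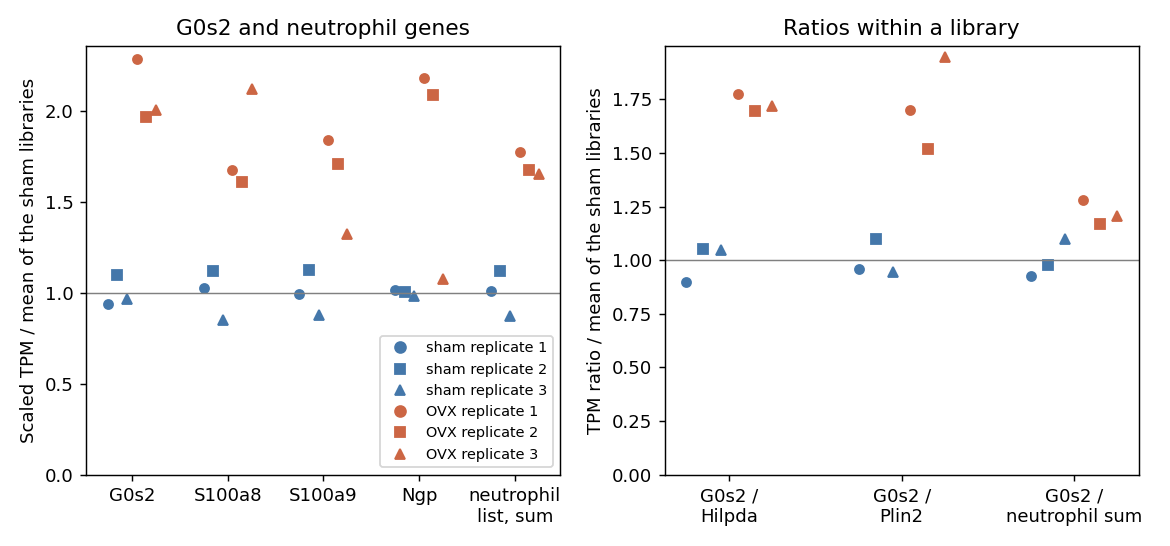
Left, scaled TPM of G0s2, 3 neutrophil genes and the summed neutrophil list, each divided by its mean over the sham libraries. Right, TPM ratios of G0s2 to Hilpda, Plin2 and the neutrophil sum, divided likewise, with sham libraries in blue and OVX libraries in orange. The neutrophil sum stands at 1.70 times sham in OVX, and the ratio of G0s2 to it at 1.22 times sham.

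Markers of other cell types are given for comparison, and their part in the member values was not tested. Of 12 macrophage markers 9 were listed, with sums of 1253 to 1336 scaled TPM for sham and 1309 to 1686 for OVX, and of 6 tested 5 were above 0. The exception was the adhesion molecule gene Vcam1, lower in every OVX library (log2 fold change -0.61 ± 0.16). Itgam was higher in every OVX library (log2 fold change 0.80 ± 0.20), as were the Fc receptor gene Fcgr3 (0.65 ± 0.17) and Lgals3 (0.30 ± 0.13), the galectin gene, whereas Cd14, the endotoxin co-receptor gene, overlapped (0.14 ± 0.20). Cd68, a marker of the sort, overlapped as well (0.21 ± 0.14). Adgre1, which encodes F4/80, had means of 0.878 ± 0.262 (sham) and 0.675 ± 0.322 (OVX), and Csf1r, the growth factor receptor gene of macrophages, was listed at 0 in all 6 libraries, which can be a failed estimate. Of 9 adipocyte markers only Lipe and Fabp4 were listed. Lipe, the hormone-sensitive lipase gene, averaged 0.2 ± 0.144 (sham) and 0.249 ± 0.0421 (OVX). Fabp4, a fatty acid carrier gene also found in macrophages and endothelium, was lower in every OVX library, with means of 441 ± 49.7 (sham) and 335 ± 3.20 (OVX). The stromal sum was 13972 to 14803 for sham and 9602 (OVX replicate 3) to 13694 for OVX, nearly all of it the matrix gene Dcn. Of 7 osteoclast markers 3 were listed, with sums of 91.1 to 108 for sham and 47.8 (OVX replicate 3) to 119 for OVX. Most of this was Ctsk, the cathepsin K gene, and the acid phosphatase gene Acp5 was lower in every OVX library (-0.70 ± 0.28). Of 6 erythroid markers 0 were listed, so no erythroid marker was analysed here.

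Hilpda (chromosome 6, 29272488 to 29275446, plus strand), the second inhibitor of ATGL, read 318, 317 and 280 scaled TPM for the sham libraries and 392, 352 and 354 for the OVX libraries. The groups did not overlap on this scale, but the gap between them was narrow. The log2 fold change was 0.26 ± 0.13, and 0.29 ± 0.10 without OVX replicate 3. On the TPM as deposited OVX replicate 3 fell to 298 so that the groups overlapped, and the log2 fold change was 0.10. The ratio of G0s2 to Hilpda was 0.788, 0.924 and 0.92 for sham and 1.56, 1.49 and 1.51 for OVX. The order of the inhibitors thus differed between the groups, Hilpda being the more abundant in every sham library and G0s2 in every OVX library.

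Plin2 (chromosome 4, 86648386 to 86670060, minus strand), the perilipin of droplets outside fat tissue, read 203, 208 and 213 scaled TPM for the sham libraries and 279, 269 and 214 for the OVX libraries. OVX replicates 1 and 2 were high, whereas OVX replicate 3 was next to the highest sham library. The log2 fold change was 0.28 ± 0.15, 0.40 ± 0.08 without OVX replicate 3 and 0.12 on the TPM as deposited, where that library fell below sham. Hilpda over Plin2 was 1.32 to 1.56 in sham and 1.31 to 1.66 in OVX, so the ratio of these 2 genes overlapped between the groups. G0s2 over Plin2 was 1.21 to 1.41 in sham and 1.95 to 2.5 in OVX, without overlap. Plin3 (chromosome 17), a perilipin that also circulates in the cytosol, ranged from 6.14 to 7.17 in sham and from 6.69 to 7.34 in OVX. Its log2 fold change was 0.06 ± 0.15, and -0.08 with the deposited TPM.

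Pnpla2 (chromosome 7, 141455198 to 141460743, plus strand), the ATGL gene, was the member with the lowest OVX level relative to sham. The sham libraries read 7.61, 2.46 and 4.44 scaled TPM and the OVX libraries 0.882, 1.66 and 2.42. The groups did not overlap, but sham replicate 2 and OVX replicate 3 were almost equal, and with equal listed totals they crossed. The log2 fold change was -1.08 ± 0.37. Of 7 annotated transcripts 2 are listed, and both add to these values. Pnpla2-202, which is protein-coding, had deposited TPM of 4.52, 2.44 and 2.22 (sham) and 0.88, 1.67 and 2.04 (OVX). Pnpla2-201, annotated as a target of nonsense-mediated decay, had 3.42, 0 and 2.85 (sham) and was listed at 0 in all 3 OVX libraries. In a fit over transcripts Pnpla2-202 had a log2 fold change of -0.57 ± 0.33 and did not pass, and Pnpla2-201 was below the level for testing. The gene's values thus rest in part on a transcript listed at 0, which can be a failed estimate.

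G0s2 over Pnpla2, a ratio of inhibitor to enzyme RNA, was 32.9, 119 and 57.9 for sham replicates 1 to 3 and 692, 316 and 220 for OVX replicates 1 to 3. The Pnpla2 value here includes Pnpla2-201, which was listed at 0 in sham replicate 2 and in all 3 OVX libraries. All OVX libraries lay above the sham libraries, with a mean 5.84 times that of sham, but the spread within groups was wide, with an SD of 44.5 in sham and 249 in OVX. Leaving out a library moved this value between 3.83 (without OVX replicate 1) and 9.02 (without sham replicate 2). With Hilpda added to G0s2 the ratio was 74.6 to 249 in sham and 367 to 1136 in OVX.

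Abhd5 (chromosome 9, 122351608 to 122381524, plus strand), the activator of ATGL, read 14.0, 11.6 and 13.1 scaled TPM for the sham libraries and 18.4, 14.8 and 11.2 for the OVX libraries. The groups overlapped through OVX replicate 3, and the log2 fold change was 0.16 ± 0.20, or 0.33 ± 0.15 without that library. Of 8 annotated transcripts 3 are listed. The largest, Abhd5-201, is annotated as a decay target and had deposited TPM of 7.16 to 11.0 (sham) and 13.3, 11.6 and 3.73 (OVX), while the protein-coding Abhd5-204 had 3.41 to 4.07 (sham) and 4.07, 3.34 and 5.68 (OVX). In OVX replicate 3 the order of these transcripts was thus turned. Exons of Abhd5 overlap the antisense gene A730085K08Rik by 950 bases and exons of Mgll overlap Gm26588 by 167. The library kit keeps the strand, but the sources do not state whether counting used it, so reads of these pairs may not have been told apart.

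Mgll (chromosome 6, 88724412 to 88828360, plus strand), with 1 of 10 annotated transcripts listed, read 2.60, 6.11 and 2.90 scaled TPM for the sham libraries and 3.51, 3.65 and 1.90 for the OVX libraries. The OVX libraries lay within or below the sham range, and the log2 fold change of -0.24 ± 0.32 was 0.07 without sham replicate 2, the highest library. Lpl (chromosome 8, 68880491 to 68907448, plus strand) read 1.12, 0.936 and 0.693 (sham) and 0.902, 1.02 and 0.309 (OVX), with 2 of 5 annotated transcripts listed. Both groups were near or below 1 scaled TPM, and they overlapped.

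**Figure D3:**
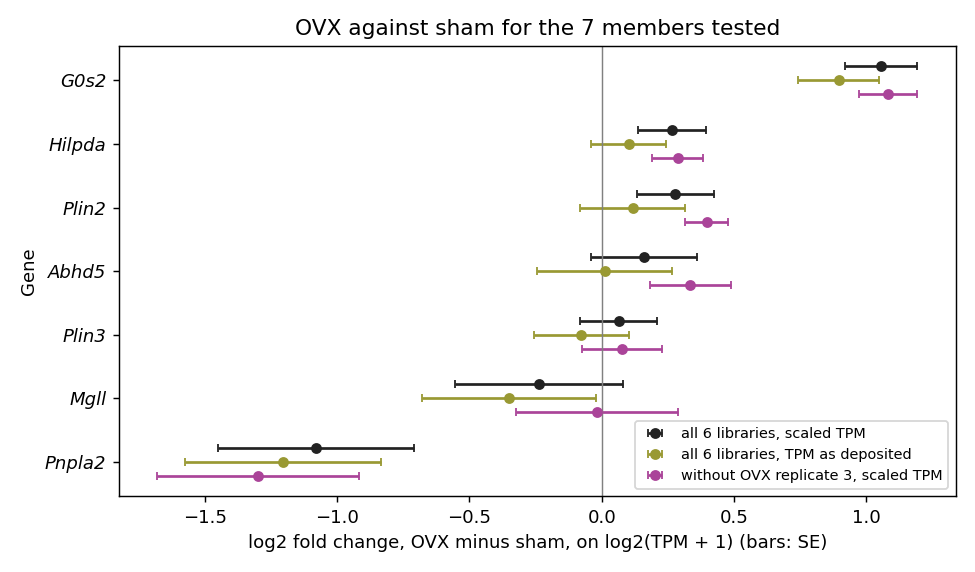
log2 fold changes, OVX minus sham, of the 7 members tested, with bars of 1 SE, from all 6 libraries on scaled TPM (black), on TPM as deposited (olive) and without OVX replicate 3 (purple). G0s2 stays near 1 in all 3 and Pnpla2 stays below 0, while Plin3 is 0.06 on scaled TPM and -0.08 on TPM as deposited.

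In all, 4 of the 8 members had groups that did not overlap, 3 above sham and Pnpla2 below, where 15.2% of all genes tested did not overlap. The rule used this contrast for G0s2, so nothing is read from the count, which was 2 (G0s2 and Pnpla2) on the TPM as deposited, where 16.6% of all genes did not overlap, and 5 without OVX replicate 3, where Abhd5 joined and 26.4% of all genes did not overlap. G0s2 made up 33.0% of the TPM of the 8 genes in sham on average and 46.2% in OVX, and Hilpda 37.7% and 30.5%.

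The profile of G0s2 over the 6 libraries was compared with those of 3211 other genes, those averaging 10 scaled TPM or more, by the root-mean-square difference of log2 values centred per gene. The 5 closest were Evi2a, a membrane protein gene first known from a viral integration site (0.054), the long noncoding RNA AW112010 (0.098), the cartilage collagen genes Col10a1 (0.15) and Col2a1 (0.17), and Htatip2 (0.19), a gene of cell death and growth control. AW112010 averaged 138 ± 11.1 scaled TPM (sham) and 269 ± 11.4 (OVX), and Col2a1 69.4 ± 1.41 (sham) and 120 ± 2.46 (OVX). Among the neutrophil genes S100a8 (0.21) and S100a9 (0.23) were nearest, and among the members Hilpda (0.40) and Plin2 (0.41). Likeness of this kind says that genes were high in the same libraries and no more.

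Beyond the 8 genes, 150 other lipid genes in 7 lists were examined, of which 111 are in the table and 91 were tested. By limma 0 of the 91 passed in either direction over all genes, and at an unadjusted p of 0.05 or less 4 were above and 6 below sham, beside 283 above and 280 below of all 8184 genes (6.88%). Groups did not overlap for 9 above and 6 below, beside 7.42% above and 7.80% below among all genes tested. The median log2 fold change of the 91 was -0.03, beside -0.01 over all genes tested. On the TPM as deposited the median over all genes was -0.15, and list medians shifted with it. None of the list genes named next passed the test.

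Of the lipid droplet coat and formation list 11 of 21 genes were tested, 7 above 0 and 4 below, with a median of 0.05, or -0.06 from deposited TPM. The values with the smallest p were 0.61 for Mettl7a1, a droplet-associated methyltransferase, -0.34 for the seipin gene Bscl2, 0.17 for Pcyt1a, which makes phosphatidylcholine for the droplet surface, and -0.18 for Aup1. Plin1, Plin4, Plin5 and Cidec, coat genes of fat cells, were not analysed here. Of the other lipases and lipase regulators 10 of 26 were tested, 6 above 0 and 4 below, with a median of 0.13 that was -0.08 without OVX replicate 3 and also without sham replicate 2. Pnpla8, a phospholipase related to ATGL, averaged 11.2 ± 0.914 scaled TPM (sham) and 17.4 ± 4.08 (OVX), and the lipoprotein lipase inhibitor gene Angptl4 48.8 ± 11.1 and 35.8 ± 13.7. The lipase maturation factor gene Lmf1 had a log2 fold change of 0.49 ± 0.35.

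Of the triglyceride and fatty acid synthesis list 21 of 30 genes were tested, 10 above 0 and 11 below, with a median of -0.02. Acly, which makes cytosolic acetyl-CoA, averaged 12.5 ± 0.869 scaled TPM (sham) and 16.7 ± 1.80 (OVX), and Dgat1, which makes triglyceride, 27.5 ± 6.19 and 36.3 ± 6.48. The fatty acid elongase gene Elovl6 had a log2 fold change of -0.52 ± 0.21 and the acyl-CoA synthetase gene Acsl3, which acts in droplet formation, had -0.42 ± 0.20. Of the uptake list 13 of 19 were tested, 5 above 0 and 8 below, with a median of -0.18 that was -0.06 without OVX replicate 3. The lipoprotein receptor gene Vldlr averaged 5.74 ± 0.112 (sham) and 9.25 ± 1.43 (OVX), the fatty acid transport gene Slc27a4 6.28 ± 0.267 and 9.04 ± 0.456, and the caveolin gene Cav1 24.7 ± 1.93 and 16.5 ± 4.58. These 3 genes, Fabp4 and the caveolin gene Cav2 (lower in every OVX library) had groups that did not overlap, 5 of 13 beside 15.2% of all genes, and 5 of 13 had an unadjusted p of 0.05 or less, beside 6.88% of all genes.

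Of the fatty acid oxidation list, the mitochondrial route that uses released fatty acids, 21 of 25 genes were tested, 7 above 0 and 14 below, with a median of -0.10 that was 0.05 without OVX replicate 3. Hadha had 0.36 ± 0.20, Acadvl -0.54 ± 0.33, Pdk4 -0.17 ± 0.15 and Acaa2 -0.27 ± 0.25. Of the lipid-sensing and adipogenic regulators 9 of 17 were tested, 3 above 0 and 6 below, with a median of -0.06. The retinoid receptor gene Rxrb had -0.61 ± 0.25, the C/EBP factor gene Cebpb 0.28 ± 0.20, Foxo1 -0.13 ± 0.14 and Hif1a, the hypoxia factor gene, -0.10 ± 0.12. Pparg and Ppara, whose products induce many droplet genes, were not analysed here. Of the cholesterol efflux and sterol ester list 6 of 12 were tested, 5 above 0 and 1 below, with a median of 0.12, or -0.03 from deposited TPM. The phospholipid transfer protein gene Pltp averaged 3.46 ± 1.04 (sham) and 1.29 ± 0.545 (OVX), and the cholesterol transport genes Npc1 and Npc2 had 0.33 ± 0.16 and 0.13 ± 0.15, with 0.12 ± 0.17 for the sterol ester hydrolase gene Nceh1.

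**Figure D4:**
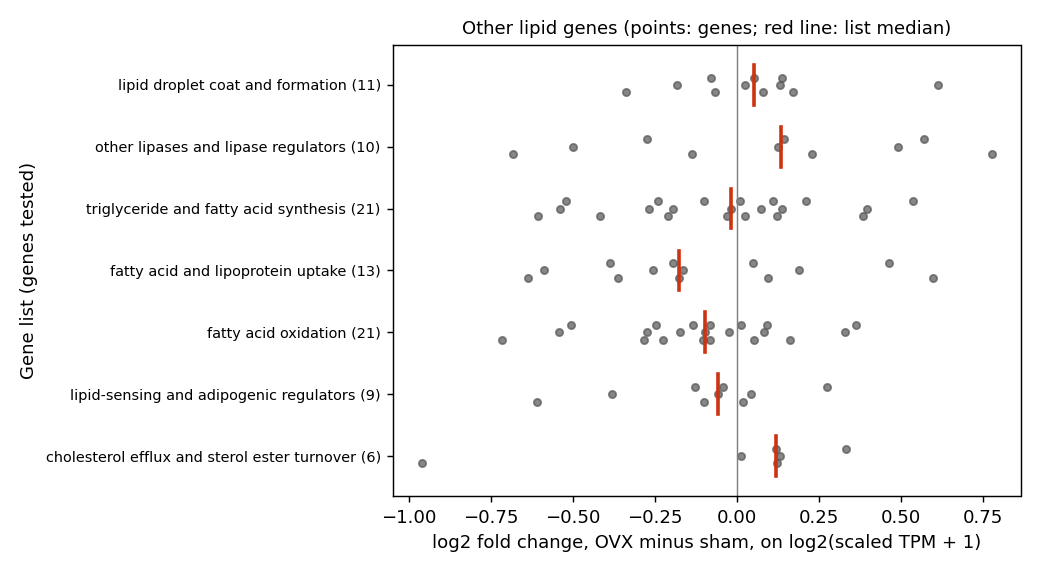
log2 fold changes, OVX minus sham, of the tested genes of 7 lipid lists, with points for genes, red lines for list medians and the number of genes tested in brackets. The medians run from -0.18 for uptake to 0.13 for the other lipases, beside -0.01 over all genes tested.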

How the data were processed

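RNA of sorted osteal macrophages was sequenced in 3 OVX and 3 sham libraries, grouped by sample title. The authors deposited 1 table of TPM per transcript and library. Reads were trimmed with fastp and aligned to mm10 by HISAT2 2.0.5 and counted by featureCounts 1.5.0-p3, per the submitters' processing notes and the study's methods. The tool that gave TPM per transcript was not found in those sources. Beside TPM, the table holds 6 columns of the authors' own comparison (a mean level, a log2 fold change with its error, a statistic and p-values), which were not used. TPM keep no counts, so the depth of each library and counting intervals cannot be given.

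The 23115 transcripts were summed to 11815 genes, and a gene's value can miss transcripts that are not listed. TPM were divided by an unweighted trimmed mean of M values (30% of M and 5% of A trimmed at each end). The 8184 genes averaging 1 scaled TPM or more were tested on log2(scaled TPM + 1) by limma 3.58.1 in R 4.3.3 with group as the only term, an empirical Bayes trend and Benjamini-Hochberg adjustment at 0.05. The scale understates changes of low genes. With 3 libraries a group the smallest exact permutation p is 0.1, so no such test was used.

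Members, lists and tests were chosen with earlier results of these data known. Named genes are the members, up to 4 genes of each lipid list by smallest p, up to 4 of each marker list by abundance with further markers, and Cav2 of the lipid lists, named after their values were seen, and the 5 genes closest to G0s2. Of these, 1 gene is not reported here. Gene coordinates came from GENCODE M21 (GRCm38, that is mm10). Alternatives were other scalings, filters, pseudocounts and spread estimates, library weights, a replicate block, single transcripts and leaving out each library.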

Additional observations from a re-analysis of the deposited data

How the results depend on the processing

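Of 8184 genes tested by limma 1 passed, the pseudogene Gm10132, which is no lipid gene. The count was 0 with a pseudocount of 0.1 and with the replicate block, 27 with library weights and from 0 to 10 when a library was left out, the 10 being without OVX replicate 3. The count of members that passed was 0 in all settings but library weights and without OVX replicate 3, where it was 1, G0s2, so leaving out a library gave 0 to 1. G0s2 was chosen on this contrast, so this is no independent evidence. The cause of these changes was not tested, and at an unadjusted p of 0.05 or less the replicate block gave 201 genes higher and 202 lower and the pseudocount of 0.1 gave 293 and 260. No lipid list gene passed in any setting. The log2 fold change of G0s2 ran from 0.89 to 1.13 and that of Pnpla2 from -1.45 to -0.54 over the alternatives fitted on genes (Pnpla2 had no value at a minimum mean of 5 scaled TPM), and those of Hilpda and Plin2 were above 0 there. That of Abhd5 ran from 0.00061 ± 0.20, next to 0, without OVX replicate 1 to 0.33 without OVX replicate 3. Fitted alone, the transcript Abhd5-201 had -0.02 ± 0.40. Mgll reversed to 0.021 with library weights and 0.070 without sham replicate 2, its range over the libraries left out being -0.42 to 0.070, and Plin3 reversed to -0.077 on the TPM as deposited. With TPM as deposited the median over all genes shifted from -0.01 to -0.15 (log2), and at an unadjusted p of 0.05 or less 127 genes were higher and 496 lower, against 283 and 280. Alternatives added after seeing the data gave 2 members with no overlap between groups on the TPM as deposited (16.6% of all genes tested), 2 with equal listed totals (15.9%), 3 with median-ratio scaling (15.1%) and 5 without OVX replicate 3 (26.4%). Whether same-numbered libraries of the groups were paired is not stated. Correlations of their deviations from the group means were -0.056, -0.13 and -0.25, and those of other pairs ran from -0.14 to 0.20. With 3 libraries a group these values cannot decide the question. The replicate block ended the call of Gm10132 and changed no call of a member or lipid list gene.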
